A study of Homo sapiens with 8 samples.

Results

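The 34 genes described here make, sense or export sterols and fatty acids, and they were measured by RNA sequencing in HCT-116 cells, a line grown from a human colorectal carcinoma. They were taken by gene symbol from 23735 genes in the tables, and the transcript row with the highest mean count stood for each gene. Of the 34 genes, 33 passed the filter on low counts, and ABCA1 did not. The cells received 5-fluorouracil (5-FU, a pyrimidine analogue that blocks thymidylate synthase) at 40 µM for 12 h and then 2.5 µM 3-MB-PP1 for 4 h (both drugs), 5-FU and then DMSO (5-FU alone), DMSO and then 3-MB-PP1 (3-MB-PP1 alone), or DMSO in both steps (vehicle cells). Each of the 4 groups held 2 libraries, 8 in all. All cells grew in medium with fetal bovine serum and were washed between the treatments. 3-MB-PP1 inhibits kinases whose ATP pocket has been enlarged by mutation. The series concerns inhibition of Cdk7, yet no label gives the kinase allele of the cells or says whether replicates were separate cultures, so p-values measure the spread between these libraries.

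Cells make cholesterol from acetyl-CoA through mevalonate and squalene, and fatty acids through malonyl-CoA. Both routes are under the sterol regulatory element binding proteins SREBP-1 and SREBP-2, which are held in the endoplasmic reticulum and released by cleavage. The escort protein SCAP carries them to the Golgi for cleavage when sterols are low, and INSIG proteins retain SCAP when sterols are high. Released SREBPs act at sterol regulatory elements together with NF-Y and SP1. Excess sterol instead activates LXR receptors, which raise exporters such as ABCA1 and ABCG1.

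RefSeq start sites on GRCh38.p14 gave promoter windows for 29 of the 34 genes, 40 windows of 300 bases in all, from 250 bases before to 50 bases after each start. Windows were searched on both strands for the letters TCACNCCAC of a sterol regulatory element, CCAAT of an NF-Y box, GGGCGG of an SP1 box, the CACGTG E-box and an LXR direct repeat (AGGTCA, 4 bases of any kind, AGGTCA), with overlapping matches kept. The 250 bases upstream of the start are printed for INSIG1, which had the lowest change with 5-FU of the 33 tested genes, for its relative INSIG2, which rose, for HMGCS1, the synthase of HMG-CoA, and for SREBF2, whose window was the only member window with the sterol regulatory element letters. Capitals mark sterol regulatory element and NF-Y box letters on either strand.
INSIG1, chr7:155297628-155297877, plus strand: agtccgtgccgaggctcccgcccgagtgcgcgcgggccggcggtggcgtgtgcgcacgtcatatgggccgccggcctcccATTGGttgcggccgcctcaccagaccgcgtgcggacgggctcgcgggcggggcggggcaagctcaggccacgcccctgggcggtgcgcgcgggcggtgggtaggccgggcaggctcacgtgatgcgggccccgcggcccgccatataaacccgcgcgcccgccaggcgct
INSIG2, chr2:118088221-118088470, plus strand: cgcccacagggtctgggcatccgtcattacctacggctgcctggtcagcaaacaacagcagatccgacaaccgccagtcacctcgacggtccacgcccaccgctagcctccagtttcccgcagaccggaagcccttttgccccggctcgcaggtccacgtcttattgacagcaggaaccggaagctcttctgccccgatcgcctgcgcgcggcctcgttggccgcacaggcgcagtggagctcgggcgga
HMGCS1, chr5:43313413-43313662, minus strand: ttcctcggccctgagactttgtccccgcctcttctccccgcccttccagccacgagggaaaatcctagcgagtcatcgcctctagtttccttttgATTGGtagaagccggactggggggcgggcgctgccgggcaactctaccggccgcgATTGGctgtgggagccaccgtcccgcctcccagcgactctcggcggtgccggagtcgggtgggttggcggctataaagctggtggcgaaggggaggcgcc
SREBF2, chr22:41832855-41833104, plus strand: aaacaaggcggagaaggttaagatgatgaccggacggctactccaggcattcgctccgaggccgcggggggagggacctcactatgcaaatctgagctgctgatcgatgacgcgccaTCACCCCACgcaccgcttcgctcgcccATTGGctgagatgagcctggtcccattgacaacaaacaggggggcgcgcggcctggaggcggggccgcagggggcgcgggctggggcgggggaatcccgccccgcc

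In SREBF2 the sterol regulatory element letters began 133 bases upstream of the start and the NF-Y letters 106 bases upstream. HMGCS1 held 2 NF-Y matches upstream in the printed window and 0 in its other window. INSIG1 held 1, and neither window of INSIG2 held any. NF-Y letters were in a window of 19 of 29 genes (65.5%), against 4425 of 10304 tested genes with a window (42.9%). By subgroup the NF-Y letters were in 5 of 6 mevalonate genes, 6 of 7 genes from squalene to cholesterol, 2 of 5 SREBP control genes, 4 of 7 fatty acid genes and 2 of 4 sterol transport genes. SP1 letters were in 28 of 29 genes (96.6%), against 74.6% of tested genes, and sterol regulatory element letters in 1 of 29 (3.45%), against 1.45%. The E-box was found in 4 of 29 (13.8%), against 12.2%, and the LXR repeat in 0 of 29, against 0.0097%. Of all 35116 windows of this length, 1.13% held the sterol regulatory element letters, 34.6% the NF-Y box, 45% the SP1 box, 7.26% the E-box and 0.0199% the LXR repeat, and of the 40 member windows 2.5%, 55%, 87.5%, 10% and 0%. These matches describe letters within the windows and not sites of binding.

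Libraries held 10582928 to 50513047 gene counts, and the shallowest and the deepest were both libraries of 3-MB-PP1 alone. Within each group log2 CPM correlated at 0.998 across genes, which are not independent replicates. CDKN1A, the p53 target p21, had 841 and 811 CPM after both drugs, 1576 and 1483 after 5-FU alone, 169 and 162 after 3-MB-PP1 alone, and 191 and 197 in vehicle cells (log2 fold change 2.98, SE 0.05, adjusted p = 6.42e-24 for 5-FU alone against vehicle, edgeR), and all 4 libraries labelled with 5-FU stood above the rest. MDM2, another p53 target, had a log2 fold change of 2.29 with 5-FU alone. CDK7 had 57.7 and 61.6 CPM after both drugs, 81.7 and 88.3 after 5-FU alone, 59.9 and 61.7 after 3-MB-PP1 alone, and 79.7 and 82.9 in vehicle cells. CDK7 fell with 3-MB-PP1 after 5-FU (log2 fold change -0.51) and without 5-FU (-0.42). Of 7 markers of colon epithelium, 6 were above 1 RPKM in every library and VIL1 was not. Their summed level was 2527 to 2548 RPKM after both drugs, 2886 to 2923 after 5-FU alone, 1713 to 1740 after 3-MB-PP1 alone and 1590 to 1665 in vehicle cells, and the part of this shift in the results was not tested. The markers went both ways: with 5-FU alone KRT8 (0.81), KRT18 (0.69), KRT19 (1.31) and CDX2 (0.30) rose, EPCAM fell (-0.36) and CDH1 did not pass (0.17). Summed markers of liver (3 genes), fat (3), fibroblasts (4), leukocytes (3) and endothelium (3) were at most 3.41 RPKM in any library, and COL1A2 and CDH5 had no count.

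Per transcript length, the most abundant of the 34 genes in vehicle cells were SCD, the desaturase that makes oleate, at 138 ± 4.94 RPKM, the fatty acid synthase FASN at 128 ± 5.46, FDPS at 106 ± 3.34 and ACLY at 105 ± 1.21 (SD, n = 2). FDPS and ACLY differed by less than the SD of FDPS. CYP51A1 (64.3 RPKM), ACAT2 (61.2) and FDFT1 (54.5) followed. For FDPS and CYP51A1 another transcript row had a higher mean RPKM than the row used, so their places hold for that row only. The same was true of HMGCS1, MVK, LSS, NSDHL, SREBF1, ACACA and ELOVL6. INSIG1 was at 23.3 ± 0.408 RPKM in vehicle cells and INSIG2 at 2.67 ± 0.31. After 5-FU alone the order of these relatives was the other way, with INSIG1 at 3.14 RPKM and INSIG2 at 5.21, and after both drugs they were at 2.64 and 4.84. ABCG1 (0.451) and ABCA1 (0.011) were the lowest in vehicle cells.

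**Figure D1:**
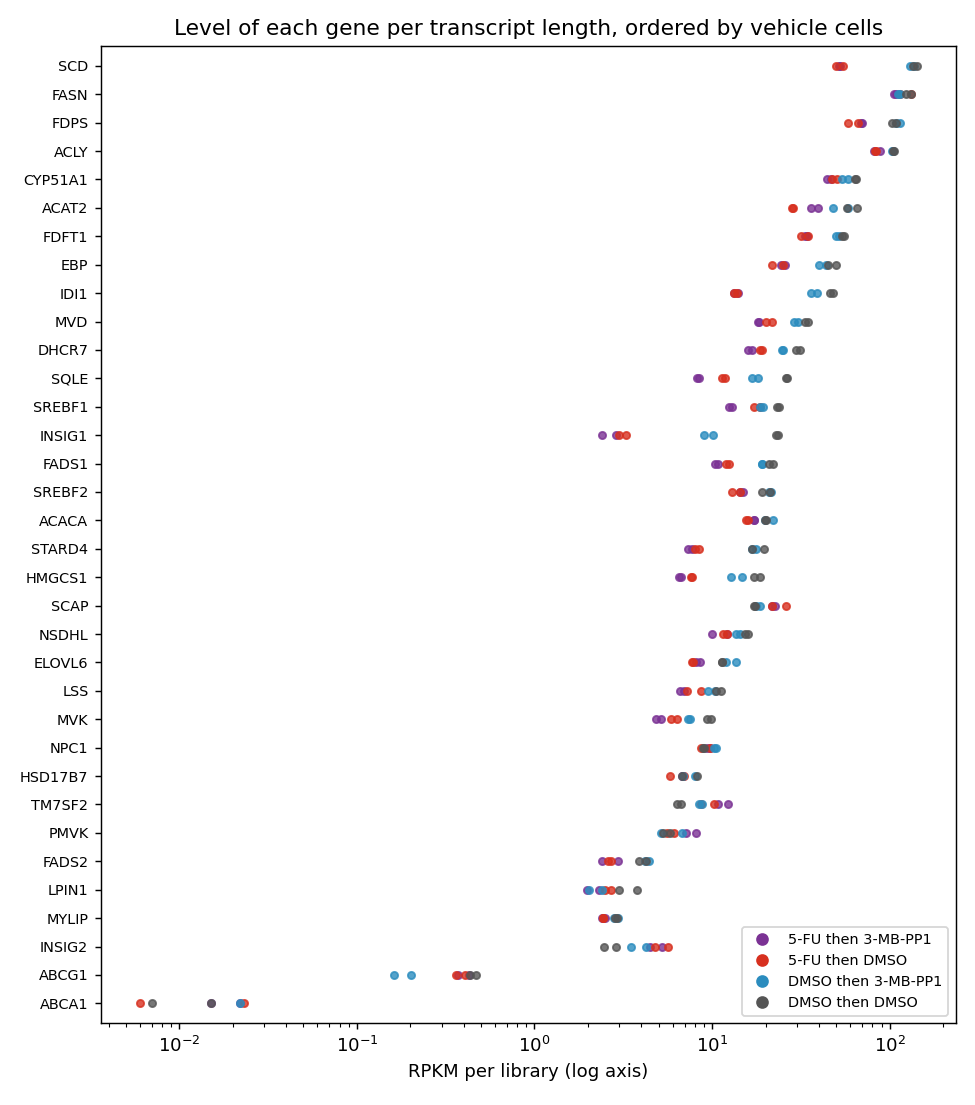
Level of each of the 34 genes in RPKM (log axis) in all 8 libraries, colored by treatment and ordered from the highest to the lowest mean in vehicle cells. SCD was highest in vehicle cells at 138 RPKM and ABCA1 lowest, and the ABCA1 library listed at 0 is not drawn.

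The comparison of 5-FU alone with vehicle cells asked what the antimetabolite did to these genes. Of 33 tested genes, 24 fell, 3 rose and 6 did not pass, by edgeR's quasi-likelihood test with Benjamini-Hochberg adjustment over all 15670 genes tested. Of the 33 genes 72.7% fell and 9.1% rose, against 22.7% and 21.3% of all tested genes (44% in either direction). The median log2 fold change was -0.58 in these genes and 0.003 in all tested genes. In such bulk RNA, fewer cells of a kind and less RNA per cell cannot be told apart. Of the 24 falls, 23 were also called when any of the 8 libraries was left out, the exception being LPIN1.

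In the mevalonate subgroup, 6 of 7 genes fell with 5-FU alone and PMVK did not pass, with a median of -0.79. IDI1, the isomerase that makes dimethylallyl pyrophosphate, had 28.4 and 29.9 CPM after both drugs, 29.4 and 28.7 after 5-FU alone, 77.0 and 82.5 after 3-MB-PP1 alone, and 101 and 104 in vehicle cells. Both 5-FU groups lay below both groups without 5-FU, and IDI1 fell with 5-FU alone (log2 fold change -1.82, SE 0.07, adjusted p = 3.2e-17). HMGCS1, which condenses acetyl-CoA with acetoacetyl-CoA, had 35.5 and 36.2 CPM after both drugs, 41.8 and 41.7 after 5-FU alone, 69.6 and 80.0 after 3-MB-PP1 alone, and 104 and 96.3 in vehicle cells. It fell (log2 fold change -1.26, SE 0.07, adjusted p = 1.38e-13), and the 4 groups did not overlap. ACAT2, the cytosolic thiolase at the start of the route, had 61.8 and 55.6 CPM after both drugs, 43.7 and 44.7 after 5-FU alone, 74.5 and 89.4 after 3-MB-PP1 alone, and 103 and 90.9 in vehicle cells. Its lowest libraries were those of 5-FU alone (log2 fold change -1.13, SE 0.08, adjusted p = 1.59e-11). ACAT2 overlaps TCP1 on the opposite strand, and since no source says whether strand was used in counting, its counts are uncertain. TCP1 fell less with 5-FU alone (-0.41, adjusted p = 1.3e-08). FDPS, which makes farnesyl pyrophosphate, had 103 and 103 CPM after both drugs, 97.8 and 87.7 after 5-FU alone, 161 and 167 after 3-MB-PP1 alone, and 157 and 164 in vehicle cells. Its groups with and without 5-FU lay apart (log2 fold change -0.79, SE 0.06, adjusted p = 4.49e-11). FDPS overlaps C1orf104 on the opposite strand, which was at -0.83 (adjusted p = 3.55e-07) with group means of 16.9 to 29.9 CPM. The part of C1orf104 reads in the FDPS counts was not tested. The kinase MVK (-0.68) and the decarboxylase MVD (-0.73) also fell, and PMVK, the next kinase of the route, was at 0.05 (adjusted p = 0.842).

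From squalene to cholesterol, 7 of 9 genes fell with 5-FU alone, TM7SF2 rose and HSD17B7 did not pass, with a median of -0.49. SQLE, the squalene epoxidase and a rate-limiting step, had 24.6 and 25.3 CPM after both drugs, 35.3 and 34.4 after 5-FU alone, 54.1 and 49.7 after 3-MB-PP1 alone, and 80.8 and 79.2 in vehicle cells. The 4 groups were fully apart, in that order, and SQLE fell (log2 fold change -1.20, SE 0.07, adjusted p = 2.08e-13). EBP, a sterol isomerase, had 30.1 and 28.2 CPM after both drugs, 28.8 and 25.4 after 5-FU alone, 50.2 and 45.9 after 3-MB-PP1 alone, and 53.3 and 59.1 in vehicle cells. It fell (log2 fold change -1.05, SE 0.08, adjusted p = 9.46e-11), with both 5-FU groups below the others. FDFT1, the squalene synthase, had 72.5 and 70.2 CPM after both drugs, 72.4 and 67.6 after 5-FU alone, 105 and 109 after 3-MB-PP1 alone, and 116 and 119 in vehicle cells (log2 fold change -0.75, SE 0.06, adjusted p = 1.93e-10). DHCR7, the last reductase of the route, had 42.6 and 44.7 CPM after both drugs, 51.0 and 50.4 after 5-FU alone, 65.5 and 66.1 after 3-MB-PP1 alone, and 81.0 and 85.5 in vehicle cells (log2 fold change -0.72, SE 0.07, adjusted p = 1.08e-09). Both drugs gave its lowest libraries and vehicle its highest. TM7SF2, a sterol C14 reductase, had 19.5 and 17.1 CPM after both drugs, 16.2 and 13.8 after 5-FU alone, 13.3 and 13.8 after 3-MB-PP1 alone, and 10.3 and 10.9 in vehicle cells. Its vehicle libraries were the lowest of the 8, and it rose (log2 fold change 0.50, SE 0.13, adjusted p = 0.00212). The lanosterol synthase LSS (-0.49), the sterol dehydrogenase NSDHL (-0.43) and the lanosterol demethylase CYP51A1 (-0.43) also fell, and HSD17B7, a ketoreductase of the route, was at -0.27 (adjusted p = 0.126).

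All 5 SREBP control genes changed with 5-FU alone, 3 downward and 2 upward. INSIG1, a SREBP target itself as well as a brake on SREBP release, had 8.70 and 7.25 CPM after both drugs, 9.87 and 9.11 after 5-FU alone, 27.0 and 30.2 after 3-MB-PP1 alone, and 72.7 and 70.9 in vehicle cells. All 4 groups lay apart, and it fell (log2 fold change -2.92, SE 0.10, adjusted p = 1.81e-18). INSIG2, the relative that is not under the same sterol control, had 13.6 and 11.5 CPM after both drugs, 14.5 and 12.5 after 5-FU alone, 8.95 and 10.9 after 3-MB-PP1 alone, and 7.62 and 6.47 in vehicle cells. Vehicle libraries were the lowest, and INSIG2 rose (log2 fold change 0.94, SE 0.15, adjusted p = 1.31e-05). SREBF2, the gene of SREBP-2, had 64.8 and 61.6 CPM after both drugs, 61.3 and 56.7 after 5-FU alone, 89.4 and 91.7 after 3-MB-PP1 alone, and 93.1 and 84.6 in vehicle cells, and it fell (log2 fold change -0.59, SE 0.07, adjusted p = 6.98e-08). SREBF1, the gene of SREBP-1, had 65.3 and 62.2 CPM after both drugs, 92.6 and 87.1 after 5-FU alone, 93.3 and 96.2 after 3-MB-PP1 alone, and 119 and 122 in vehicle cells. It fell with 5-FU alone (log2 fold change -0.42, SE 0.06, adjusted p = 2.6e-06) and its lowest libraries were those of both drugs. SREBF1 overlaps RAI1 on the opposite strand, which was at -0.23 (adjusted p = 0.0492) with 5-FU alone, and the part of these reads in its counts was not tested. SCAP, the escort protein, had 93.6 and 95.9 CPM after both drugs, 110.0 and 93.0 after 5-FU alone, 74.7 and 77.9 after 3-MB-PP1 alone, and 74.8 and 75.9 in vehicle cells, and it rose (log2 fold change 0.43, SE 0.07, adjusted p = 1.85e-05).

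Among fatty acid genes, 7 of 8 fell with 5-FU alone and FASN did not pass, with a median of -0.49. SCD had 289 and 283 CPM after both drugs, 298 and 277 after 5-FU alone, 707 and 745 after 3-MB-PP1 alone, and 793 and 754 in vehicle cells. The 5-FU groups overlapped each other and lay far below the rest, and SCD fell (log2 fold change -1.43, SE 0.05, adjusted p = 3.88e-18). FADS1, the delta-5 desaturase, had 46.4 and 47.7 CPM after both drugs, 55.1 and 53.2 after 5-FU alone, 84.3 and 83.2 after 3-MB-PP1 alone, and 99.4 and 95.1 in vehicle cells (log2 fold change -0.84, SE 0.06, adjusted p = 2.59e-11). FADS2, the delta-6 desaturase, had 7.59 and 9.34 CPM after both drugs, 8.16 and 8.57 after 5-FU alone, 13.2 and 13.7 after 3-MB-PP1 alone, and 13.7 and 12.6 in vehicle cells (log2 fold change -0.65, SE 0.13, adjusted p = 0.000276). Both desaturases were lower after 5-FU, with or without 3-MB-PP1, than in either group without it. LPIN1, a phosphatidate phosphatase, had 12.4 and 10.6 CPM after both drugs, 14.5 and 13.5 after 5-FU alone, 10.8 and 12.7 after 3-MB-PP1 alone, and 20.7 and 16.4 in vehicle cells. Vehicle libraries were its highest, and its fall was called (log2 fold change -0.41, SE 0.13, adjusted p = 0.0113) but not without 5-FU alone replicate 2 (-0.36, adjusted p = 0.0868) or without vehicle replicate 1 (-0.23, adjusted p = 0.264). The elongase ELOVL6 (-0.58), the acetyl-CoA carboxylase ACACA (-0.37) and ATP citrate lyase ACLY (-0.36) fell by less than SCD. FASN was at -0.08 (adjusted p = 0.236), and without 5-FU alone replicate 1 it was called (-0.17, adjusted p = 0.0105).

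Of the 4 tested sterol transport genes, STARD4 fell with 5-FU alone and 3 did not pass. STARD4, a carrier of cholesterol between membranes, had 17.5 and 16.7 CPM after both drugs, 18.0 and 19.4 after 5-FU alone, 38.0 and 39.5 after 3-MB-PP1 alone, and 45.1 and 38.8 in vehicle cells. Both 5-FU groups were below the other groups (log2 fold change -1.16, SE 0.09, adjusted p = 7.5e-11). NPC1, which releases cholesterol from lysosomes, had 47.0 and 45.1 CPM after both drugs, 41.8 and 47.2 after 5-FU alone, 50.2 and 49.1 after 3-MB-PP1 alone, and 43.6 and 44.3 in vehicle cells and was at 0.02 (adjusted p = 0.865). NPC1 overlaps C18orf8 on the opposite strand, which had group means of 37.5 to 46.4 CPM, and the part of these reads was not tested. MYLIP, a ubiquitin ligase induced by LXR, had 7.67 and 7.41 CPM after both drugs, 7.43 and 7.55 after 5-FU alone, 8.59 and 8.93 after 3-MB-PP1 alone, and 9.18 and 8.90 in vehicle cells and was at -0.27 (adjusted p = 0.123). ABCG1, a sterol exporter, had 1.27 and 1.08 CPM after both drugs, 1.05 and 1.20 after 5-FU alone, 0.585 and 0.47 after 3-MB-PP1 alone, and 1.40 and 1.29 in vehicle cells, and was at -0.25 (adjusted p = 0.603). ABCA1, which loads cholesterol on apolipoproteins, had 2 and 3 counts after both drugs, 1 and 4 after 5-FU alone, 12 and 0 after 3-MB-PP1 alone, and 2 and 1 in vehicle cells, too few for a test.

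**Figure D2:**
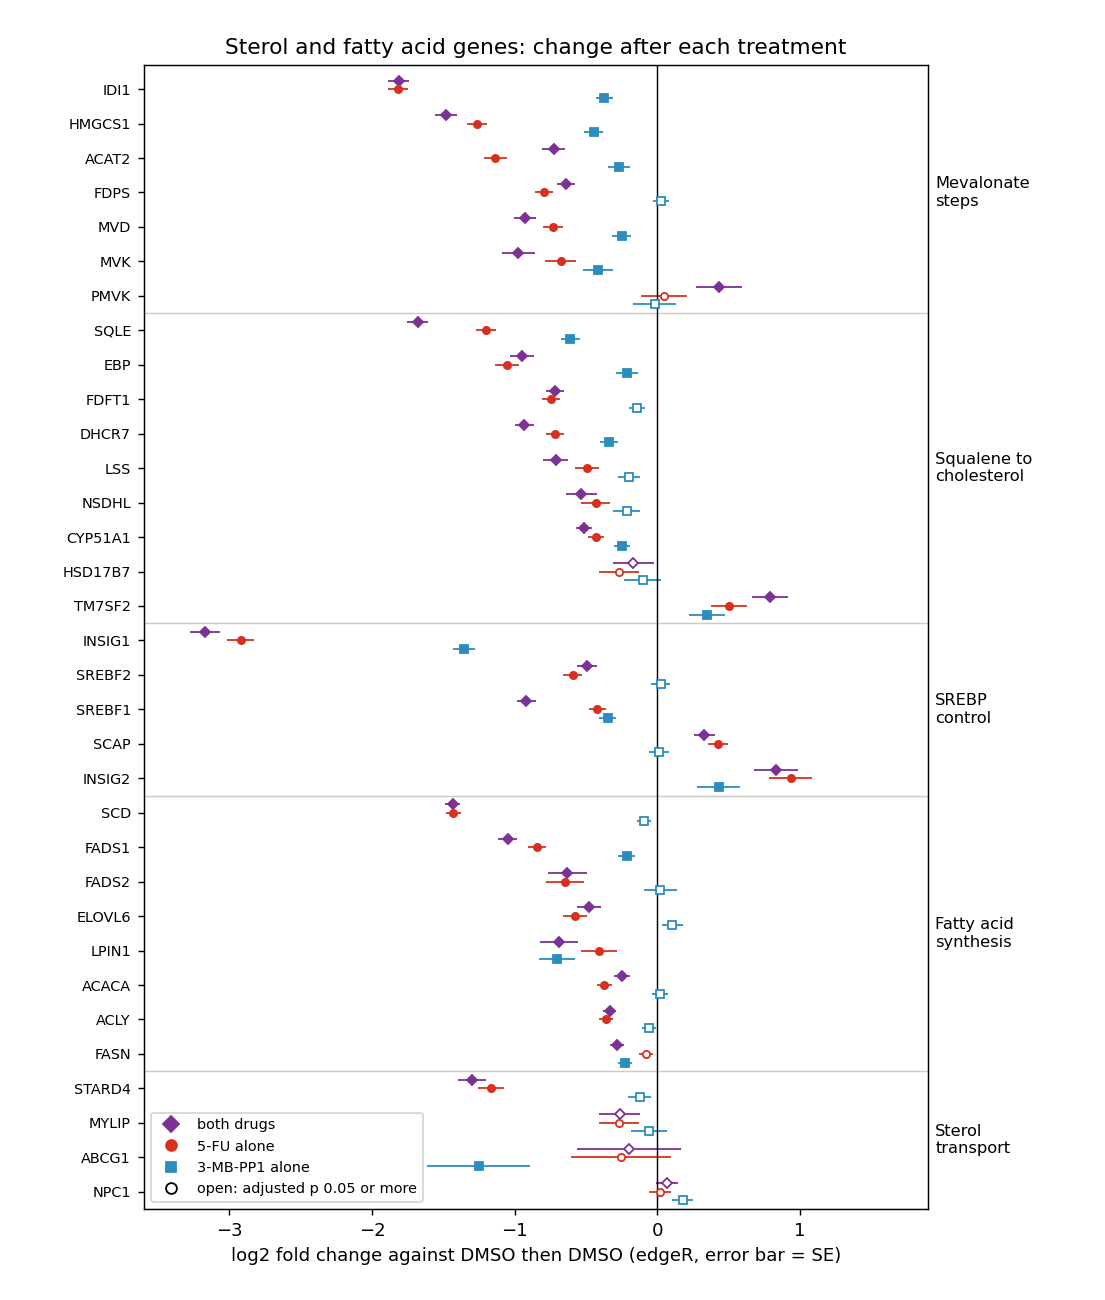
Log2 fold change with its SE for the 33 tested genes by subgroup, for both drugs, 5-FU alone and 3-MB-PP1 alone against vehicle cells, with open symbols where the adjusted p was 0.05 or more. INSIG1 lay farthest left at -3.17 with both drugs, and INSIG2, SCAP and TM7SF2 lay right of 0 and were called with both drugs and with 5-FU alone. PMVK (0.43 and 0.05) and NPC1 (0.07 and 0.02) also lay right of 0 in these comparisons, and of these values only that of PMVK with both drugs was called.

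The comparison of 3-MB-PP1 alone with vehicle cells asked what the kinase inhibitor did without 5-FU. Of the 33 genes, 15 fell (45.5%), 2 rose (6.1%) and 16 did not pass, against 16.9% and 11.6% of all tested genes (28.5% in either direction). The median was -0.20 in these genes and -0.0118 in all tested genes. INSIG1 fell (log2 fold change -1.35, SE 0.08, adjusted p = 4.04e-12), to 27.0 and 30.2 CPM, against 72.7 and 70.9 in vehicle cells. SQLE (log2 fold change -0.61, SE 0.07, adjusted p = 1.2e-07), HMGCS1 (log2 fold change -0.44, SE 0.07, adjusted p = 1.78e-05) and MVK (-0.41) had the largest falls of the sterol synthesis enzymes. IDI1 (-0.37), DHCR7 (-0.34), CYP51A1 (-0.25) and SREBF1 (log2 fold change -0.35, SE 0.06, adjusted p = 7.43e-05) fell by less. RAI1, which overlaps SREBF1, was at -0.29 (adjusted p = 0.0173). SCD (-0.09, adjusted p = 0.153), FDPS (0.03, 0.779), STARD4 (-0.12, 0.283) and SREBF2 (0.02, 0.826) did not pass, although each fell with 5-FU alone.

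Among fatty acid genes LPIN1 (log2 fold change -0.70, SE 0.13, adjusted p = 0.000114), FASN (log2 fold change -0.22, SE 0.05, adjusted p = 0.00131) and FADS1 (log2 fold change -0.21, SE 0.06, adjusted p = 0.00836) fell with 3-MB-PP1 alone, and 5 did not pass. Of the 15 falls, 10 were called whichever library was left out. DESeq2 also called 10 falls, without MVK (-0.42, adjusted p = 0.0516), ACAT2 (0.0652), MVD (0.061), EBP (0.179) and ABCG1 (0.137). The fall of ACAT2 (-0.27) ended without 3-MB-PP1 alone replicate 1 (-0.12, adjusted p = 0.378) or vehicle replicate 1 (-0.18, 0.218), that of MVD (-0.25) without 3-MB-PP1 alone replicate 1 (-0.21, 0.11) or vehicle replicate 2 (-0.23, 0.0685), and that of FADS1 without vehicle replicate 1 (-0.18, 0.0963). EBP (-0.21) lost its call without either library of both drugs (-0.19 each, adjusted p = 0.0703 and 0.0708), without 3-MB-PP1 alone replicate 2 (-0.16, 0.156) or without vehicle replicate 2 (-0.13, 0.36). ABCG1 (log2 fold change -1.25, SE 0.36, adjusted p = 0.0104), with 5 to 30 counts per library, lost it without 3-MB-PP1 alone replicate 1 (-1.50, 0.102) or either vehicle library (-1.20 and -1.31, 0.0861 and 0.0548).

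INSIG2 (log2 fold change 0.43, SE 0.15, adjusted p = 0.0327) and TM7SF2 (log2 fold change 0.35, SE 0.12, adjusted p = 0.0346) rose with 3-MB-PP1 alone, as they did with 5-FU alone. Neither call was stable: that of INSIG2 ended without 3-MB-PP1 alone replicate 2 (0.34, adjusted p = 0.108) or either vehicle library (0.55 and 0.32, 0.0534 and 0.265), and that of TM7SF2 without any library of 3-MB-PP1 alone (0.38 and 0.33, 0.119 and 0.0687) or of vehicle (0.31 and 0.39, 0.191 and 0.0906). Both also ended under DESeq2 (adjusted p = 0.124 and 0.169). Without 5-FU alone replicate 1, NPC1 was called as well (0.18, adjusted p = 0.0457). Of the members that fell with 3-MB-PP1 alone, 13 fell with 5-FU alone too, but those comparisons share the vehicle libraries. The same overlap was not counted over all tested genes, so this number does not set the members apart.

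**Figure D3:**
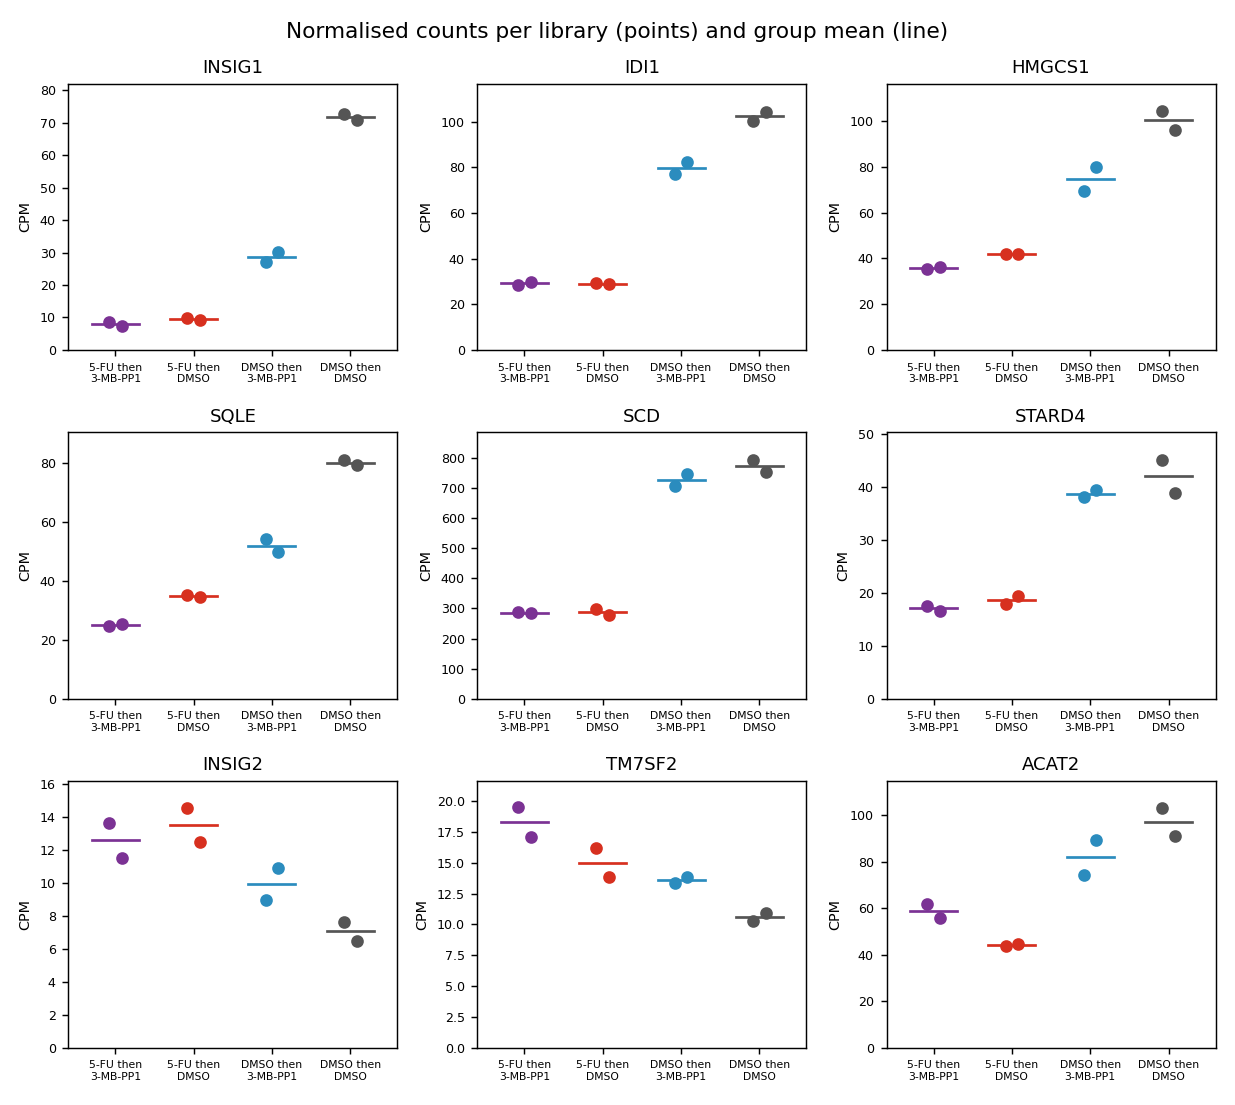
CPM of 9 genes in each library (points, from a zero baseline) with the group mean (line), for both drugs, 5-FU alone, 3-MB-PP1 alone and vehicle from left to right. INSIG1 was at 7.25 to 9.87 CPM in the 4 libraries with 5-FU, 27.0 and 30.2 with 3-MB-PP1 alone and 72.7 and 70.9 in vehicle cells, whereas INSIG2 and TM7SF2 were lowest in vehicle cells.

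The comparison of both drugs with 5-FU alone asked what 3-MB-PP1 did in cells that had received 5-FU. Of the 33 genes, 6 fell (18.2%), 1 rose (3%) and 26 did not pass, against 17.3% and 15.7% of all tested genes (33% in either direction). The share that fell was therefore near that of all genes, and the median was -0.01. SREBF1 (log2 fold change -0.50, SE 0.06, adjusted p = 1.84e-06) and SQLE (log2 fold change -0.48, SE 0.08, adjusted p = 6.83e-05) fell whichever library was left out, RAI1 being at -0.45 (adjusted p = 0.00126). HMGCS1 (-0.22), DHCR7 (-0.22), FADS1 (-0.20) and FASN (-0.21) fell by less. Without both drugs replicate 1 the falls were 3, with HMGCS1, DHCR7 and FADS1 lost (adjusted p = 0.163, 0.153 and 0.147), and without 5-FU alone replicate 1 they were 2, with FASN lost as well (0.11, 0.0684, 0.102 and 0.0934). HMGCS1 also lost its call without both drugs replicate 2 (adjusted p = 0.112) and without 5-FU alone replicate 2 (0.109), FADS1 without both drugs replicate 2 (0.0715), and DHCR7 without 5-FU alone replicate 2 (0.051), where SCAP (-0.22, 0.0258) and LSS (-0.34, 0.0153) were called instead. DESeq2 called 3 falls. INSIG1 was at -0.25 (SE 0.14, adjusted p = 0.168) and SCD at -0.01 (0.936).

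ACAT2 rose with 3-MB-PP1 after 5-FU (log2 fold change 0.41, SE 0.09, adjusted p = 0.000763), to 61.8 and 55.6 CPM, against 43.7 and 44.7 after 5-FU alone. Its overlapping neighbour TCP1 also rose, by less (0.21, adjusted p = 0.000441), and its part in the rise was not tested. With 1 library left out 1 to 3 genes rose: FDPS (0.23, adjusted p = 0.0219) and TM7SF2 (0.40, 0.0435) joined ACAT2 without 5-FU alone replicate 1, and PMVK (0.38 each) without either library of 3-MB-PP1 alone (0.0394 and 0.0404). The 6 genes that fell were all among the 15 that fell with 3-MB-PP1 alone, a comparison with no library in common. Of all tested genes, 1621 fell in both comparisons, which was 59.8% of the 2711 that fell after 5-FU and 61.2% of the 2650 that fell without it, against 100% and 40% for the members. The other 9 of those 15 did not pass after 5-FU, which alone does not show a difference.

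The difference between both effects of 3-MB-PP1 was tested as an interaction. It was called and positive for INSIG1 (log2 fold change 1.11, SE 0.16, adjusted p = 9.23e-05), ACAT2 (log2 fold change 0.68, SE 0.12, adjusted p = 0.000741) and IDI1 (log2 fold change 0.37, SE 0.10, adjusted p = 0.0343), and negative for 0 of the 33 genes by edgeR and by DESeq2 (1 at an unadjusted p under 0.05 in each). Over all tested genes 2.11% were called positive and 2.04% negative, 4.15% in all. The unadjusted p was 3.36e-07 for INSIG1, 4.73e-06 for ACAT2 and 0.00114 for IDI1. INSIG1 and ACAT2 were called whichever library was left out, and IDI1 in 1 of the 8 such fits, with adjusted p from 0.0161 to 0.24 and a value of 0.31 to 0.40 where the call ended, which was without each library except 3-MB-PP1 alone replicate 2. DESeq2 did not call IDI1 (0.37, adjusted p = 0.108). TCP1, beside ACAT2, was at 0.19 (adjusted p = 0.077), and IDI2-AS1, opposite IDI1, at 0.56 (0.221) with group means of 3.23 to 8.14 CPM. Across the 33 genes the change with 3-MB-PP1 alone and after 5-FU correlated at Pearson 0.42 and Spearman 0.60, against Pearson 0.73 over all tested genes. These genes share libraries and are not independent, so no test is given. In 24 of 33 genes the change was more positive after 5-FU, a count that was not made over all tested genes. The median interaction was 0.10 in the 33 genes and 0.0136 in all tested genes, and only 3 of the 33 were called.

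**Figure D4:**
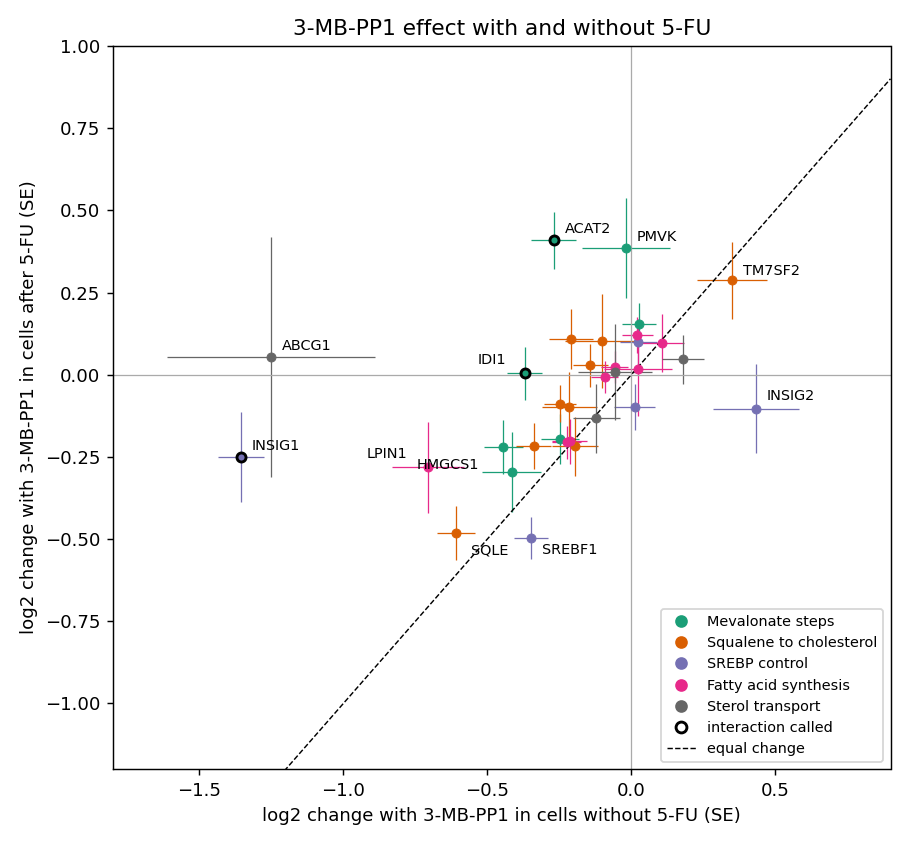
Log2 change with 3-MB-PP1 in cells after 5-FU (vertical axis) against that in cells without 5-FU (horizontal axis), with SE, for the 33 tested genes. INSIG1, ACAT2 and IDI1, ringed in black, lay above the line of equal change and had a called interaction.

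After both drugs, 25 of the 33 genes were lower than in vehicle cells (75.8%), 4 were higher (12.1%) and 4 did not pass, against 26.2% and 24.1% of all tested genes (50.3% in either direction). All 25 falls were called whichever library was left out. The median was -0.64, and 7 genes fell over 2-fold: INSIG1 (log2 fold change -3.17, SE 0.10, adjusted p = 1.53e-18), IDI1 (log2 fold change -1.81, SE 0.07), SQLE (log2 fold change -1.68, SE 0.08), HMGCS1 (-1.48), SCD (-1.43), STARD4 (-1.30) and FADS1 (-1.05). All 8 fatty acid genes fell, FASN included (log2 fold change -0.28, SE 0.05, adjusted p = 4.49e-05). SREBF1 fell by more than with either drug alone in value (log2 fold change -0.92, SE 0.06, adjusted p = 5.87e-12), and its interaction was -0.15 (adjusted p = 0.394). INSIG2 (0.83), TM7SF2 (0.79) and SCAP (0.33) rose. PMVK, with 9.34 and 10.5 CPM after both drugs, 7.89 and 7.31 after 5-FU alone, 6.70 and 8.74 after 3-MB-PP1 alone, and 7.0 and 7.69 in vehicle cells, rose as well (log2 fold change 0.43, SE 0.16, adjusted p = 0.0256), but not without both drugs replicate 2 (0.36, adjusted p = 0.154), vehicle replicate 1 (0.37, 0.145) or vehicle replicate 2 (0.50, 0.0506), nor in DESeq2 (0.141). Both drugs gave the lowest of the 4 group means in 15 of 33 genes, and vehicle gave the highest in 23. These counts, and that of falls over 2-fold, were not made over all tested genes, so they describe the 33 genes only.

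Another 43 genes of these pathways were examined beside the 34. With 5-FU alone 18 fell, 6 rose and 19 did not pass, with a median of -0.16. These are 41.9% and 14% of the 43, against 22.7% and 21.3% of all tested genes. Of 7 other sterol synthesis genes 6 fell, among them TMEM97, a sterol-regulated membrane protein (-1.33), with C14orf1 not passing. Of 18 other fatty acid genes 7 fell and 4 rose, with ACSL3, an acyl-CoA synthetase, at -1.26 and FADS3, a desaturase relative, at 1.22. SREBP processing genes mostly did not pass, with 2 of 9 lower and 1 higher, and of 9 sterol traffic genes 3 fell and 1 rose. TMEM97 overlaps IFT20 on the opposite strand.

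With 3-MB-PP1 alone 7 of the 43 fell (16.3%) and 4 rose (9.3%), near the 16.9% and 11.6% of all tested genes. With 3-MB-PP1 after 5-FU 5 fell (11.6%) and 11 rose (25.6%), against 17.3% and 15.7% of all tested genes. MID1IP1, a stimulator of acetyl-CoA carboxylase, fell in both settings (log2 fold change -0.99, SE 0.09, adjusted p = 1.03e-08, and log2 fold change -1.26, SE 0.10, adjusted p = 1.13e-09), in comparisons with no library in common. NR1H2, the gene of LXR beta, also fell in both (log2 fold change -0.63, SE 0.10, adjusted p = 2.83e-05, and log2 fold change -0.88, SE 0.10, adjusted p = 3.1e-07). SC4MOL, the methylsterol oxidase, fell with 3-MB-PP1 alone (-0.59). MBTPS2, a protease that cleaves SREBPs and overlaps YY2, rose with 3-MB-PP1 after 5-FU (log2 fold change 0.52, SE 0.16, adjusted p = 0.0121). This call ended without both drugs replicate 1 (0.49) or 5-FU alone replicate 1 (0.44), and in DESeq2 (adjusted p = 0.058). After both drugs 14 of the 43 were lower (32.6%) and 9 higher (20.9%) than in vehicle cells, against 26.2% and 24.1% of all tested genes. The interaction was positive for SC4MOL (log2 fold change 0.40, SE 0.10, adjusted p = 0.0223) and LBR (log2 fold change 0.31, SE 0.08, adjusted p = 0.0271), a sterol reductase of the nuclear envelope, but neither call held with each library left out. That of SC4MOL ended without each library except 5-FU alone replicate 1 and 3-MB-PP1 alone replicate 2 (values of 0.33 to 0.42). It also ended in DESeq2 (0.39, adjusted p = 0.0782) and with the transcript of highest mean RPKM (0.34, edgeR adjusted p = 0.0658). The LBR call ended without either library of both drugs or replicate 1 of any other group (values of 0.27 to 0.31).

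Scaling to ERCC spike-ins, RNA added in known amounts whose share of a library differed up to 1.76-fold between replicates, put the median of all genes at 0.13 for 5-FU alone and 0.19 for 3-MB-PP1 alone, and the median interaction at -0.305. Under it 2 of the 33 genes fell with 5-FU alone, INSIG1 (-2.79, adjusted p = 4.54e-05) and IDI1 (-1.70, 0.0463), and 3 with both drugs, INSIG1, IDI1 and SQLE. By edgeR under this scaling 0 members were called with 3-MB-PP1 alone (2 at an unadjusted p under 0.05), 0 with 3-MB-PP1 after 5-FU (0 unadjusted) and 0 for the interaction (0 unadjusted), against 10, 4 and 2 in DESeq2 with its own scaling. Relative to the median of all genes, the median of the 33 genes was -0.58 for 5-FU alone and -0.13 for 3-MB-PP1 alone, against -0.58 and -0.19 under the usual scaling.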

How the data were processed

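Libraries were made with a Ribo-Zero kit, which removes rRNA, for single-end sequencing, per the labels' protocols. TopHat2 2.0.13 and the build hg19 are named in the submitters' processing notes, and how reads were counted, by which annotation and with what regard to strand was not given in the sources used here. The deposited tables hold a whole read count per RefSeq transcript, without normalization, in which reads of shared exons appear for each transcript, and RPKM made by the authors from that count, transcript length and a library total. Each table listed 41735 rows, 92 of them ERCC spike-ins. Of 6260 rows without a symbol, 5871 were named by accession from RefSeq (GRCh38.p14), and rows left without a name or that named a listed gene (0.995% of counts) were set aside. Genes of each symbol were represented by the transcript with the highest mean count.

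Counts were fitted with edgeR 4.0.16 in R 4.3.3 (filterByExpr, TMM, quasi-likelihood F tests, 1 model of 4 groups with 4 residual degrees of freedom, common biological coefficient of variation 0.0423), adjusted by Benjamini-Hochberg over 15670 genes, and called at an adjusted p under 0.05. SE was derived from the F statistic. "Rose" and "fell" are used of called genes. CPM are edgeR's scaled counts. The fit was tested on simulated data. Alternatives were DESeq2 1.42.0, no filter, RLE, ERCC scaling, a replicate block, another transcript per gene and each library left out. Members and lists were chosen with earlier results of these data known. Members are all named. Values in every library are given for up to 4 genes per subgroup with the largest change, those against their subgroup and those with a called interaction, and up to 3 other pathway genes are named per comparison. Intervals of counting error are not given, and depth limits ABCA1 and ABCG1. Genes that overlap others (10 of 34) are less certain.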

Additional observations from a re-analysis of the deposited data

Results flagged for a closer look

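The interaction in edgeR, the difference in the 3-MB-PP1 effect with and without 5-FU, was called for 3 of the 33 tested genes (9.1%). Of all tested genes 4.15% were called. INSIG1 was at -0.25 after 5-FU and -1.35 without it, a difference of 1.11 (SE 0.16, adjusted p = 9.23e-05). ACAT2 was at 0.41 and -0.27, a difference of 0.68 (SE 0.12, adjusted p = 0.000741), with the overlap with TCP1 described above. IDI1 was at 0.00 and -0.37, a difference of 0.37 (SE 0.10, adjusted p = 0.0343), which was called in 1 of 8 fits with a library left out and not in DESeq2 (0.37, adjusted p = 0.108). Under ERCC scaling, which put the median interaction of all genes at -0.305, the differences were 0.71 for INSIG1, 0.26 for ACAT2 and 0.026 for IDI1, and none of the 3 was called (adjusted p = 0.997, 0.997 and 1).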

How the results depend on the processing

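RLE size factors and the other choice of transcript changed no call of the 33 genes in the 5 comparisons, and the replicate block changed 1. DESeq2 ended 13 of these calls. In this section "after 5-FU" means with 3-MB-PP1 after 5-FU. DESeq2 counts that differed from the edgeR ones by more than 1.5-fold were all lower. They were 2578 genes with 3-MB-PP1 alone (edgeR 4461), 3273 after 5-FU (edgeR 5165) and 374 for the interaction (edgeR 650). Among members, 0 rose with 3-MB-PP1 alone and 3 fell after 5-FU. Without the filter MVD (-0.21) and LSS (-0.24) were also called with 3-MB-PP1 after 5-FU. ERCC scaling ended 78 of 83 member calls, 3 of them with a change of sign, and left 244 genes with 5-FU alone, 113 with 3-MB-PP1 alone, 52 after 5-FU, 429 with both drugs and 0 for the interaction, with 0 members risen in any comparison and 2, 0, 0 and 3 fallen. For the interaction, 74 genes had an unadjusted p under 0.05 in edgeR under it, and DESeq2 called 374. ACAT2 (0.0287), FASN (0.0062), FADS1 (0.0047) and LBR (0.0284) with 3-MB-PP1 alone were slightly positive under it, below the shift of all genes of 0.19, and LBR turned negative for the interaction (-0.0395), and the cause was not tested. Leaving out 1 library gave 3360 to 5355 genes after 5-FU and 241 to 909 for the interaction, and among members 2 to 6 falls and 1 to 3 rises after 5-FU, and 0 to 3 rises with 3-MB-PP1 alone. Where a group was left with 1 library, its spread was taken from the other groups. Replicate differences correlated at -0.0799 to 0.109 between groups, and the main fit did not pair libraries with equal replicate numbers. Such correlations cannot show whether those libraries shared a culture or a batch with a small effect. The replicate block gave 2 members risen after 5-FU, PMVK (0.38, adjusted p = 0.0475) beside ACAT2.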

Other observations

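ALB, the serum albumin gene and a liver marker, had 31 and 33 counts after both drugs, 0 and 0 after 5-FU alone, 131 and 34 after 3-MB-PP1 alone, and 2 and 0 in vehicle cells. Both groups with 3-MB-PP1 lay above both groups without it. KDR, an endothelial receptor, had 38 and 45 counts after both drugs, 15 and 16 after 5-FU alone, 256 and 48 after 3-MB-PP1 alone, and 13 and 18 in vehicle cells. These counts are not scaled to depth, and 3-MB-PP1 alone held the deepest library (50513047 gene counts) and the shallowest (10582928). In RPKM, ALB had 1.08 and 1.13 after both drugs and 1.14 and 1.44 after 3-MB-PP1 alone. It had 0 and 0 after 5-FU alone, and 0.068 and 0 in vehicle cells. KDR had 0.493 and 0.574 RPKM after both drugs and 0.827 and 0.753 after 3-MB-PP1 alone. It had 0.164 and 0.157 after 5-FU alone, and 0.164 and 0.221 in vehicle cells. The other liver markers APOA1 and TTR had at most 4 counts in any library, and the endothelial marker CDH5 had 0 in all 8. PECAM1, the remaining endothelial marker, had 1.147 and 1.144 RPKM after both drugs and 1.158 and 1.252 after 5-FU alone. It had 1.335 and 1.088 RPKM after 3-MB-PP1 alone and 1.659 and 1.304 in vehicle cells. Unlike KDR, its groups with 3-MB-PP1 did not lie above those without it. By edgeR's quasi-likelihood test over all genes, ALB rose with 3-MB-PP1 after 5-FU (adjusted p = 1.26e-07) and with 3-MB-PP1 alone (adjusted p = 2.94e-07), and no fold is given against groups at 0 to 2 counts. KDR rose with 3-MB-PP1 after 5-FU (log2 fold change 1.73, SE 0.29, adjusted p = 4.84e-05) and with 3-MB-PP1 alone (log2 fold change 2.02, SE 0.24, adjusted p = 7.03e-07). Both genes were singled out after their values were seen.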
